A study of Mus musculus with 6 samples.

Results

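Basal epidermal cells made up 2314 of the 28275 barcodes that passed the quality limits in the 3 libraries of Gli1+ cells sorted from mouse Achilles tendon. They were selected on measured values: a barcode needed at least 1000 unique molecular identifiers (UMIs, each standing for 1 captured RNA molecule), at least 200 detected genes, at most 5% mitochondrial UMIs, no UMI of the leukocyte gene Ptprc, at least 0.5% of its UMIs from Krt5 and Krt14 together and less than 1% from Krt1 and Krt10 together. The rule found 60 members among 7516 passing barcodes of the uninjured library, 1675 among 10064 at 7 days post injury (dpi) and 579 among 10695 at 21 dpi. The levels of the 4 keratin genes therefore describe the rule, and no test was made of them.

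All animals were Gli1-CreERT2; Ai9 mice given tamoxifen, in which cells that use the Gli1 promoter at that time, and their progeny, carry a red fluorescent reporter. The uninjured group had intact tendons, and the 7 dpi and 21 dpi groups had the Achilles tendon cut through a skin incision that was then sutured. The labels give 24 mice with an equal sex distribution, 8 in each group. Cells were sorted into a Gli1+ and a Gli1- library for each group, so that each condition was 1 library and none of the differences given here had a replicate check. The reporter marks lineage and not current Gli1 use, and the labels name only tendon cells.

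The epidermis is renewed from its basal layer, a sheet of proliferating keratinocytes that rest on the basement membrane through hemidesmosomes. Basal cells make the keratin pair K5 and K14 under the control of the transcription factor p63, the product of Trp63, and switch to K1 and K10 once they leave the layer. After a skin wound, keratinocytes at the margin make the keratins K6, K16 and K17, loosen their contacts, migrate and proliferate to close the gap.

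The label held against its markers. Trp63 was measured in the summed UMIs of the members at 278 counts per 1000000 UMIs (CPM; 95% Poisson interval 250 to 308) in uninjured, 156 (150 to 162) at 7 dpi and 240 (230 to 249) at 21 dpi. Barcodes with a UMI of Pdgfra, a receptor of fibroblasts and tendon progenitors, held Trp63 at 4.32, 20.8 and 10.7 CPM in the same order. These Pdgfra barcodes include the 4, 365 and 83 members that held such a UMI. Their summed levels of epidermal genes are therefore not those of free RNA alone. Col17a1, the hemidesmosome collagen, was at 883, 646 and 504 CPM in members and at 4.32, 67.0 and 18.8 CPM in Pdgfra barcodes. Krt15, a keratin of basal and hair follicle stem cells, was at 1853, 966 and 615 CPM in members and at 25.7, 92.4 and 20.3 CPM in Pdgfra barcodes. These 3 genes were not in the rule, and each was at least several times higher in members than in Pdgfra barcodes of its own library. The intervals cover counting error only.

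Members took 0.798% of passing barcodes in uninjured (exact binomial 95% interval 0.610 to 1.03), 16.6% at 7 dpi (15.9 to 17.4) and 5.41% at 21 dpi (4.99 to 5.86). Their share was highest at 7 dpi under each keratin limit tried. At a limit of 2% it was 0.106%, 9.89% and 1.72%. In the Gli1- libraries the same rule found 0 of 12113 barcodes in uninjured (exact binomial upper limit 0.0304%), 28 of 10899 at 7 dpi (0.257%) and 42 of 12042 at 21 dpi (0.349%). How much skin went into each dissection is not given in the sources used here, and its part in these shares was not tested. Members had a median of 19992 UMIs in uninjured, 9328 at 7 dpi and 16012 at 21 dpi, so that the 7 dpi members were the shallowest. The median number of detected genes was 4563, 3001 and 3822.

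The libraries differed in sex, although the labels give both sexes in equal number over the cohort. Of the members, 28 held UMIs of Xist and of no Y-linked gene in uninjured, 25 held a Y-linked UMI and no Xist, and 2 held both. At 7 dpi the counts were 0, 1251 and 0, and at 21 dpi they were 546, 1 and 13. Over all passing barcodes 1 held Xist alone at 7 dpi against 7246 with Y-linked UMIs alone, and at 21 dpi 9922 held Xist alone against 11. Cntn5 also differed between the libraries. It was at 156 CPM in members at 7 dpi, at 0.486 at 21 dpi and at 0 in uninjured, and at 150 CPM in the Pdgfra barcodes of 7 dpi. Time after injury, sex and library therefore cannot be told apart between 7 dpi and 21 dpi. Barcode sequences shared between 2 libraries numbered 27 to 75 for each pair, and 1 was a member in both 7 dpi and 21 dpi.

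Free keratin RNA was highest at 7 dpi. Krt5 and Krt14 took 0.00896% of the summed UMIs of Pdgfra barcodes in uninjured, 0.220% at 7 dpi and 0.0519% at 21 dpi. These sums include the members with a Pdgfra UMI, and the median Pdgfra barcode held 0%, 0.0798% and 0.00621%. In endothelial barcodes, which hold at least 2 UMIs of Pecam1 and Cdh5 and likewise should lack both keratins, the shares of summed UMIs were 0.00525%, 0.301% and 0.121%. The median endothelial barcode held 0%, 0.123% and 0%. Members had 1.43%, 2.17% and 1.69% of their summed UMIs. After each barcode was thinned at random to 2000 UMIs, 75.1% of the Pdgfra barcodes at 7 dpi held a Krt14 UMI, against 1.53% in uninjured and 16.7% at 21 dpi. Most of these barcodes lay under the limit: 7.37% of Pdgfra barcodes (95% interval 6.68 to 8.10) and 5.04% of endothelial barcodes (2.05 to 10.1) reached 0.5% at 7 dpi, against 0.242% and 0 of 429 in uninjured. Of the Pdgfra barcodes, 4, 395 and 84 reached 0.5% in uninjured, 7 dpi and 21 dpi, and 4, 365 and 83 of these were members.

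**Figure D1:**
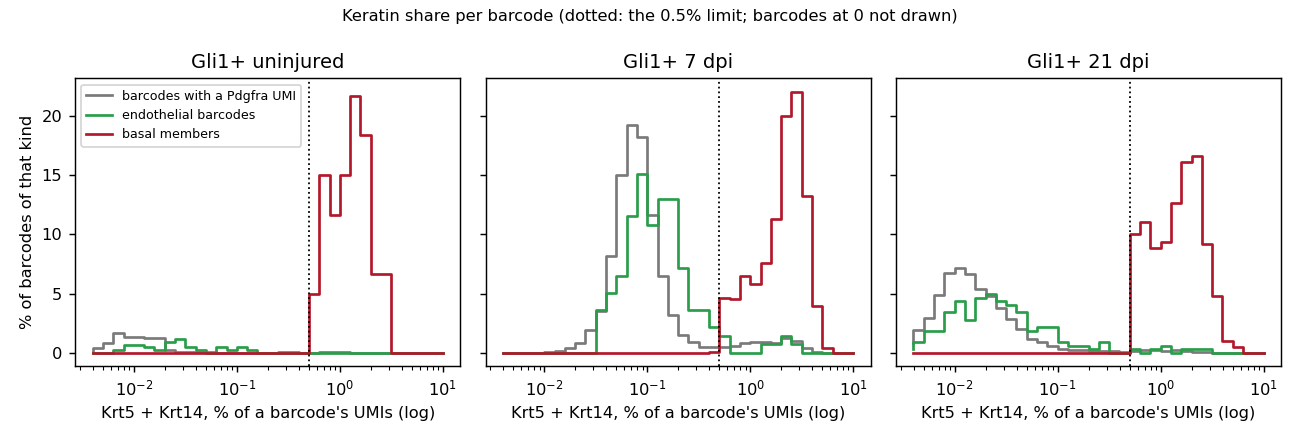
Histograms of the share of Krt5 and Krt14 in each barcode's UMIs (x axis, percent, log scale) for basal members, barcodes with a Pdgfra UMI and endothelial barcodes in the 3 Gli1+ libraries; the y axis is the percent of barcodes of that kind and the dotted line the 0.5% limit. At 7 dpi the bulk of the Pdgfra and endothelial barcodes lies near 0.1%, to the right of its place in uninjured and 21 dpi, and the members form a separate peak above 2%.

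The members nearest to the limit differed from those far above it at 7 dpi. The 58 members with 0.5% to 0.6% keratin had a median of 5196 UMIs and 0.922% collagen (Col1a1, Col1a2 and Col3a1 UMIs), and the 76 barcodes just outside, at 0.4% to 0.5%, had 3444 UMIs (median) and 1.51% collagen. The 995 members at 2% or more had a median of 9266 UMIs and 0.348% collagen. Of the members at 0.5% to 1%, 35.1% held a Pdgfra UMI, against 14.1% of those at 2% or more. Among the barcodes with the highest scores of the doublet caller Scrublet were 32.4% and 4.12% of these bins. They were 3.33%, 14.9% and 13.1% of all members in uninjured, 7 dpi and 21 dpi. Over all passing barcodes the marked share was 6.01%, 8.05% and 8.56%, which was set in advance from the number of passing barcodes. At 21 dpi, 40 members lay at 0.5% to 0.6% and 47 barcodes at 0.4% to 0.5%, with 0.109% and 0.0808% collagen. In uninjured there were 3 and 6 such barcodes.

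The members' sums also held UMIs of fibroblast and of muscle and pericyte markers, and both sums were higher in the injured libraries. The 12 fibroblast markers summed to 1020 CPM in uninjured members, 13620 at 7 dpi and 6714 at 21 dpi, against 36759, 55503 and 63662 in the Pdgfra barcodes, and none of the 12 was at 0. Endothelial barcodes at 7 dpi held 20697 CPM of the same genes, more than the members. Col1a1 alone was at 54.5, 4005 and 1888 CPM in members. The 8 endothelial markers summed to between 10.7 and 31.7 CPM in members against 3903 to 6719 in endothelial barcodes. The 12 immune markers summed to 30.1 to 52.2 CPM, with 5, 2 and 4 of them at 0, and were led after injury by Trbc2 at 24.9 and 42.3 CPM. The 11 Merkel and sebaceous markers summed to 143 to 232 CPM with Mgst1 highest, and the 10 Schwann and melanocyte markers to 58.5 to 87.8 CPM, nearly all from Mbp. The 10 muscle and pericyte markers summed to 25.3, 359 and 194 CPM, led by Acta2. The part of fibroblast RNA in the differences below was not tested, and for part of the genes the level in Pdgfra barcodes is given beside that of the members. For Gnas and Isg15 the ratio is also given in members with no Pdgfra, Pecam1 or Cdh5 UMI and under 0.5% collagen (52, 960 and 441 members, called clean members here).

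The comparison of 7 dpi with 21 dpi asks how the members differed between the earlier and the later time after injury. Of 6508 measured genes (at least 20 UMIs in the pair and 20 CPM in the higher library), 341 (5.24%) were 2-fold or more higher at 7 dpi and 90 (1.38%) were 2-fold or more lower, and the median log2 ratio was 0.05. Of the 341 genes, 263 were below their level in the Pdgfra barcodes of 7 dpi and 31 were at least 3 times above it. Of the 90 genes, 25 were below the Pdgfra level of 21 dpi and 42 were at least 3 times above it. Against uninjured, 687 of 7009 measured genes (9.8%) were 2-fold or more higher at 7 dpi and 558 (7.96%) lower, with a median of -0.12. At 21 dpi, 464 of 6794 (6.83%) were higher and 545 (8.02%) lower, with a median of -0.17. Both comparisons with uninjured share the same 60 control members. The split depended on the scaling: with TMM factors 262 genes were higher and 127 lower at 7 dpi than at 21 dpi, 886 higher and 326 lower at 7 dpi than in uninjured, and 730 higher and 252 lower at 21 dpi than in uninjured. The counts of each list below are to be read against the shares over all measured genes given here.

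**Figure D2:**
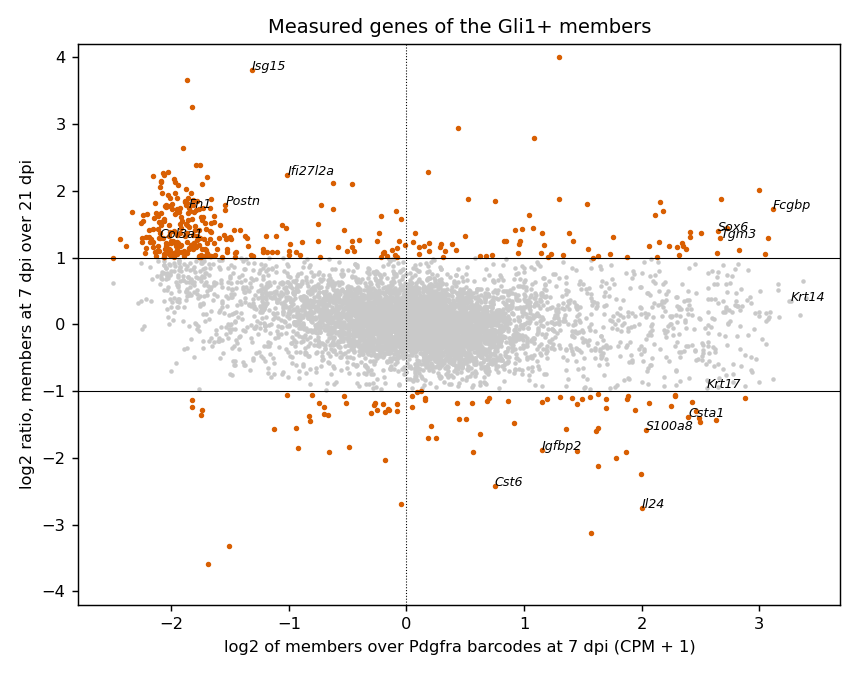
Each point is 1 of the 6508 measured genes; the x axis is the log2 ratio of the members' level to that of the Pdgfra barcodes at 7 dpi (CPM with 1 added), the y axis the log2 ratio of members at 7 dpi over 21 dpi, and orange points are past 2-fold (8 genes lie outside the y axis). Most of the genes higher at 7 dpi form a cloud near -2 on the x axis, where Col3a1, Fn1 and Postn lie, and Fcgbp, Sox6 and Tgm3 lie to the right.

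Among adhesion genes of the basal layer, Itga3 was lower in both injured libraries. Among the 16 hemidesmosome and basement membrane genes, 0 of 16 measured were 2-fold higher and 3 lower at 7 dpi than in uninjured (median log2 ratio -0.41), and 0 of 14 were higher and 5 lower at 21 dpi (median -0.73), where 7.96% and 8.02% of all measured genes were lower. These shares of lower genes fall with TMM scaling, as given above. Itga3, the laminin-binding integrin subunit of basal cells, was at 185 CPM (162 to 210) in uninjured, 33.8 (31.2 to 36.6) at 7 dpi and 72.7 (67.6 to 78.1) at 21 dpi. None of these intervals, which cover counting error only, overlaps another, and Pdgfra barcodes held 3.73 to 3.84 CPM in all 3 libraries. Itga6, the hemidesmosome integrin subunit, was at 730, 510 and 470 CPM. Dst, the hemidesmosome plakin, was at 590, 482 and 257 CPM, against 572, 537 and 449 in Pdgfra barcodes, and Col4a5, a basement membrane collagen, at 63.7, 32.3 and 16.1 CPM.

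Between 7 dpi and 21 dpi, 2 of 15 genes of this list were 2-fold higher and 1 lower at 7 dpi. Frem2, a basement membrane protein gene, was at 13.0, 20.8 and 5.64 CPM. Of the 24 junction genes, 0 of 21 were 2-fold higher and 2 lower at 7 dpi than in uninjured (median -0.57), and 0 of 20 higher and 4 lower at 21 dpi (median -0.68). The 2 of 21 are near the 7.96% of all measured genes that were lower at 7 dpi. Epcam, an epithelial adhesion molecule, was at 325, 80.7 and 154 CPM, so that it was lowest at 7 dpi. The tight junction genes Cldn1 and Ocln were lowest at 21 dpi instead, at 99.8, 67.4 and 29.8 CPM for Cldn1 and at 49.9, 31.1 and 12.5 CPM for Ocln. Dsp, the desmosome plakin, was at 1272, 701 and 548 CPM.

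Krt16, Krt6b, Fabp5, stefin and calgranulin genes were higher in both injured libraries than in uninjured, whereas Krt6a and Krt17 were not past 2-fold at 7 dpi. Of the 20 genes of this list, 9 of 16 measured were 2-fold or more higher at 7 dpi than in uninjured and 1 was lower (median log2 ratio 1.43, against -0.12 over all measured genes), and at 21 dpi 10 were higher and 1 lower (median 1.92, against -0.17). Krt16 was at 264 CPM (237 to 293) in uninjured, 844 (830 to 857) at 7 dpi and 872 (854 to 890) at 21 dpi, and 3 of the 60 uninjured members held 81.4% of the uninjured UMIs. Krt6b had no UMI in uninjured and 148 (143 to 154) and 204 CPM (195 to 213) after injury, at least 64.4-fold and 88.6-fold above a floor of 3 UMIs over the uninjured members.

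Krt6a was at 501, 608 and 1083 CPM, and Krt17 at 1049, 596 and 1156 CPM. Without the members rich in Krt79, Cst6 or Defb6 described below, Krt17 was at 629, 549 and 1034 CPM, so that uninjured and 7 dpi were then close. Krt6a and Krt6b, and Krt14, Krt16 and Krt17, are near copies, and the split of reads within each set is uncertain. The level of Krt16 in Pdgfra barcodes, some of which were members, was highest at 7 dpi, at 0.236, 251 and 52.6 CPM. After thinning, 32.5% of Pdgfra barcodes at 7 dpi held a Krt16 UMI, against 51.2% of members (48.8 to 53.7). At 21 dpi the shares were 3.75% and 30.6% (26.8 to 34.5), and in uninjured 0% and 10% (3.76 to 20.5).

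Fabp5, a fatty acid binding protein of keratinocytes, was at 188 CPM (165 to 213) in uninjured members, 4033 (4004 to 4063) at 7 dpi and 6012 (5964 to 6059) at 21 dpi. Among uninjured members, the highest 3 held 69.8% of the UMIs. Pdgfra barcodes held 29.2, 2387 and 472 CPM. At 7 dpi a Fabp5 UMI was found in 93.1% of thinned members and in 90.9% of thinned Pdgfra barcodes, while at 21 dpi the shares were 62.7% and 22.0%. The highest 10% of the members (167 barcodes) held 68.6% of the Fabp5 UMIs at 7 dpi, and the highest 10% at 21 dpi (57 barcodes) held 68.4%. The median member had 14.0 Fabp5 UMIs per 10000 at 7 dpi and 5.77 at 21 dpi, so that the order of the medians was opposite to that of the sums.

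The stefin genes, which encode cysteine protease inhibitors, were next. Stfa3 was at 104 CPM (86.9 to 123), 1746 (1726 to 1765) and 970 (951 to 989), with 0.177, 329 and 36.1 CPM in Pdgfra barcodes. Cstdc5 was at 38.4, 1963 and 1866 CPM and Stfa1 at 5.37, 230 and 196 CPM. These genes belong to a family of near copies, so that the values of single members are uncertain. Of thinned members, 11.7% held a Stfa3 UMI in uninjured, 81.5% at 7 dpi and 47.2% at 21 dpi, against 0%, 36.04% and 2.94% of Pdgfra barcodes.

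The calgranulin genes S100a8 and S100a9, alarm proteins of stressed keratinocytes and of neutrophils, were higher at 21 dpi than at 7 dpi. S100a8 was at 3.84 CPM (1.25 to 8.95) in uninjured, 127 (122 to 132) at 7 dpi and 381 (369 to 393) at 21 dpi, and S100a9 at 12.3, 224 and 361 CPM. The RNA was concentrated: 3 of the 1675 members held 32.2% of the S100a8 UMIs at 7 dpi and 3 of 579 held 25.7% at 21 dpi. Gjb2, a gap junction gene of wounded epidermis, was at 12.3, 27.8 and 60.0 CPM.

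**Figure D3:**
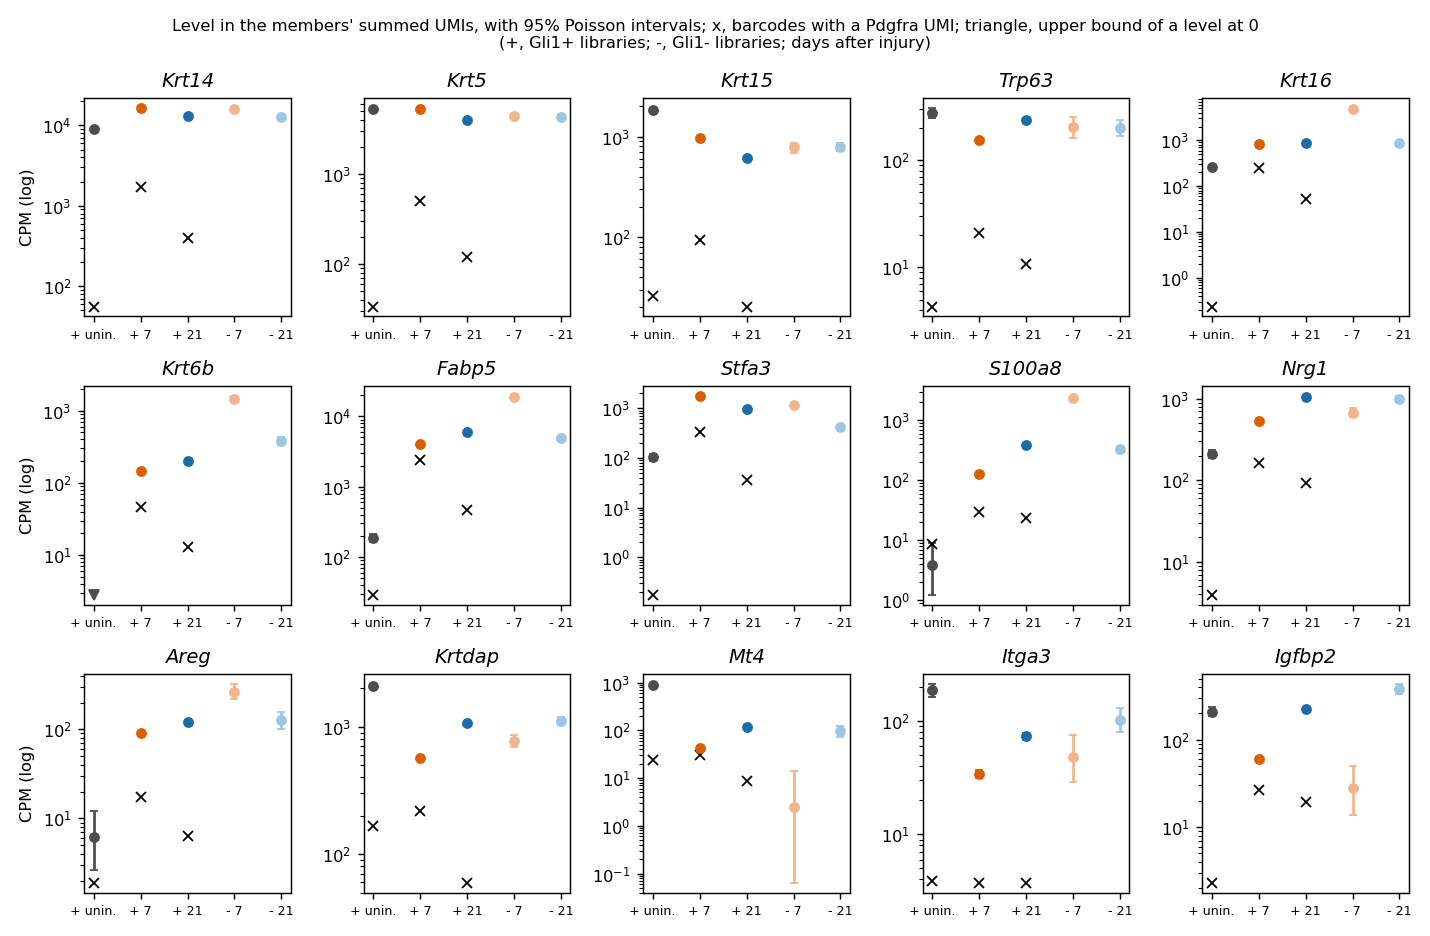
Levels of 15 genes in the members' summed UMIs (y axis, CPM, log scale) in the 3 Gli1+ and 2 Gli1- libraries that hold members; points carry 95% Poisson intervals, often smaller than the point, crosses give the Pdgfra barcodes of the same Gli1+ library, and the triangle is the upper bound of a level at 0. Krt16, Fabp5, Stfa3, S100a8, Nrg1 and Areg lie higher in both injured Gli1+ libraries than in uninjured, and Krtdap, Mt4 and Itga3 lie lower.

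Among growth factor genes, the EGF family ligands Areg and Nrg1 were higher after injury and above the Pdgfra barcodes of the same library. Areg, which encodes the EGF receptor ligand amphiregulin, was at 6.14 CPM (2.65 to 12.1) in uninjured, 91.0 (86.7 to 95.6) at 7 dpi and 121 (115 to 128) at 21 dpi, against 1.89, 17.5 and 6.31 in Pdgfra barcodes. Nrg1, the ligand neuregulin 1, was at 211 (187 to 238), 538 (527 to 549) and 1043 CPM (1023 to 1063), against 3.96, 161 and 94.1. Epgn, the ligand epigen, was at 6.14, 18.0 and 40.4 CPM and was under the 20 CPM limit for a comparison of 7 dpi with uninjured. Hbegf, another ligand of the EGF receptor, was at 360, 321 and 346 CPM and Egfr itself at 152, 228 and 173 CPM, below its 386 to 492 CPM in Pdgfra barcodes. Over the list of 29 growth factor genes, 5 of 24 measured were 2-fold higher and 2 lower at 7 dpi than in uninjured, and 2 of 26 were higher and 2 lower than at 21 dpi. Over all measured genes 9.8% were higher and 7.96% lower in the first comparison, and 5.24% and 1.38% in the second, so that the 2 of 26 higher genes are near the share over all genes.

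The promoter of Areg is shown because it held a full cyclic AMP response element, the site bound by CREB factors downstream of Gs and protein kinase A. The sequence is the 250 bases before the start in RefSeq (GRCm38.p6, chr5:91139349-91139598, plus strand), with the element in capitals.
Areg: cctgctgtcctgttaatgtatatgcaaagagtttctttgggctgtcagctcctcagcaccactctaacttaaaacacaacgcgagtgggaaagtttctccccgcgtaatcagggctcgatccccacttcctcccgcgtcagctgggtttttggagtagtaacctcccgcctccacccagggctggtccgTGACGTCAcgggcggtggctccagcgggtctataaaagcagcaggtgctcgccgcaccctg
The letters searched were TGACGTCA, which read the same on both strands, and 1.55% of 32851 promoters of this length held them. Of the 19 growth factor genes of the list with a promoter entry, Areg was the 1 with a match. The match is a description of these letters and not a measured binding site.

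Among genes of Gs and protein kinase A signalling itself, Gnas, which encodes the Gs alpha subunit, was at 414 CPM (379 to 450) in uninjured members, 552 (541 to 563) at 7 dpi and 415 (403 to 428) at 21 dpi, against 1402, 1556 and 1511 in Pdgfra barcodes. In clean members the log2 ratio of 7 dpi over 21 dpi was 0.00, against 0.41 over all members. Of the 20 genes of this list, 0 of 14 were past 2-fold in either direction between 7 dpi and 21 dpi, and 3 of 14 were higher at 7 dpi than in uninjured, where 9.8% of all measured genes were higher. Pde4d, a cyclic AMP phosphodiesterase gene, was at 92.1, 196 and 164 CPM and Creb3l1 at 4.60, 22.2 and 14.2 CPM, both below the Pdgfra barcodes. Gli1 was at 2.30, 1.12 and 1.46 CPM in members, against 14.96, 1.92 and 3.73 CPM in Pdgfra barcodes.

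Isg15, Bst2 and Ifi27l2a, genes induced by interferon, were higher at 7 dpi than at 21 dpi in members and in Pdgfra barcodes alike. Of the 23 genes of the list, 4 of 14 measured were 2-fold higher and 1 lower (median log2 ratio 0.46, against 0.05 over all measured genes), and 7 of 14 were higher and 1 lower than in uninjured. Isg15, a ubiquitin-like protein induced by type I interferon, was at 6.14 CPM (2.65 to 12.1), 24.5 (22.3 to 26.9) and 1.75 (1.04 to 2.77) in members, and at 20.9, 62.5 and 6.15 in Pdgfra barcodes. Bst2, the antiviral membrane protein tetherin, was at 5.37 (2.16 to 11.1), 38.5 (35.7 to 41.5) and 8.36 CPM (6.69 to 10.3), and at 59.4, 127 and 30.1 in Pdgfra barcodes. Ifi27l2a was at 99.0, 131 and 27.8 CPM, and at 296, 266 and 65.0 CPM in Pdgfra barcodes. An Isg15 UMI was found in 4% of thinned members at 7 dpi and in 9.96% of Pdgfra barcodes, so that the members' share was not above that of the other cells. In clean members the log2 ratio of 7 dpi over 21 dpi for Isg15 was 4.04, against 3.81 over all members.

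The promoters of Isg15 and Bst2 are shown because both held the interferon-stimulated response element in overlapping copies. Each is the 250 bases before the start in RefSeq (GRCm38.p6), at chr4:156200819-156201068 and chr8:71537473-71537722, both on the minus strand and written 5′ to 3′ along the gene, with the matches in capitals.
Isg15: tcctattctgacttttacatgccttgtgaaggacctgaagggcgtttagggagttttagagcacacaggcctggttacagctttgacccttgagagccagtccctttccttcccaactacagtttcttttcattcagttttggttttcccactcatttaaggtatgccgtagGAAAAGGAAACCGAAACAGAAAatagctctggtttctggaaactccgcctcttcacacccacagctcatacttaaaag
Bst2: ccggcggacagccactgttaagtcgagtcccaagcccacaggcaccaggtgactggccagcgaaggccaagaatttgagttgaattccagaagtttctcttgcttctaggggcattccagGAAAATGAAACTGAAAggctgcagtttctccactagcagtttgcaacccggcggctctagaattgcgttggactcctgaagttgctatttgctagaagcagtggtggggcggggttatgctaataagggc
The search on both strands was for GAAA, any 2 bases and GAAA again, with 3 overlapping matches in Isg15 and 2 in Bst2. Of the 19 genes of the interferon list with a promoter entry, 9 held a match (47.4%), against 2.98% of all promoters of this length. The list was chosen for interferon and antigen presentation genes, so that this share says nothing about the members. The matches describe these letters and are not measured binding sites. Ifitm3, an antiviral membrane protein gene, was at 522, 1710 and 999 CPM in members and at 1082, 1836 and 1208 CPM in Pdgfra barcodes, and the class I gene H2-K1 at 172, 448 and 379 CPM.

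Of the 27 cytokine and chemokine genes, 3 of 12 measured were 2-fold higher and 3 lower at 7 dpi than at 21 dpi, and 8 of the 12 were below the Pdgfra barcodes. Il24, a cytokine of the IL-20 family made by wounded epidermis, was at 6.91 CPM (3.16 to 13.1), 6.66 (5.52 to 7.97) and 44.6 (40.6 to 48.9), with at most 1.21 CPM in Pdgfra barcodes, and was thus highest at 21 dpi. Csf3, which encodes the granulocyte growth factor G-CSF, was at 0, 2.13 and 25.7 CPM in members, but at 47.1 CPM in the Pdgfra barcodes of 21 dpi. Ccl2 and Cxcl1, at 244 and 360 CPM in members at 7 dpi, were below the 939 and 1528 CPM of the Pdgfra barcodes. Ccl27a, the skin T cell chemokine of keratinocytes, was at 142, 34.4 and 60.2 CPM, against 7.86 to 8.61 in Pdgfra barcodes. Stat3 was at 528, 184 and 339 CPM, and Pdgfra barcodes gave 621, 224 and 410 CPM in the same order of libraries.

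Early differentiation genes did not move as 1 group. Of the 29 listed genes, 5 of 14 measured were 2-fold higher at 7 dpi than at 21 dpi and 1 was lower, and against uninjured 2 of 15 were higher and 4 lower at 7 dpi. Krtdap, a secreted protein of keratinocytes that begin to differentiate, was at 2074 CPM (1997 to 2154), 563 (552 to 574) and 1067 (1047 to 1087). Its 3 intervals, which cover counting error only, do not overlap. Tgm3, a transglutaminase that crosslinks the cornified envelope, was at 228 (203 to 255), 181 (174 to 187) and 73.7 CPM (68.5 to 79.1). Dsg1a, a desmosomal cadherin of the upper layers, was at 101, 67.3 and 18.4 CPM. Calml3 was at 129, 15.8 and 59.5 CPM.

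Krt1 and Krt10, which the rule limited, were at 1259 and 726 CPM in members at 7 dpi. This was near the 890 and 697 CPM of Pdgfra barcodes, some of which were members. Suprabasal barcodes, which met the same rule with Krt1 and Krt10 at 1% or more, numbered 1, 168 and 20. They were 9.12% (7.84 to 10.5) of all epidermal barcodes at 7 dpi and 3.34% (2.05 to 5.11) at 21 dpi. At 7 dpi they held 23062 CPM of Fabp5, 4132 of Stfa3 and 2851 of Krt16, each above the level of the basal members, and 82.3 CPM of Krt15, below it.

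Among epidermis-enriched genes, Fcgbp, Sox6, Tgm3, Capns2 and Baiap2l1 were the 5 genes at 2-fold or more higher at 7 dpi than at 21 dpi with at least 100 CPM and 3 times the Pdgfra level in the higher library. With TMM scaling Capns2 and Baiap2l1 were no longer past 2-fold. A gene qualified through the library where it was higher, so that the genes of each direction are a set of their own and no share is given. Fcgbp, an IgG Fc binding protein gene, was at 55.3 CPM (43.2 to 69.6), 141 (135 to 146) and 42.3 (38.4 to 46.5), and Sox6, a transcription factor gene, at 223, 274 and 104 CPM. In the other direction 9 genes were past 2-fold. Igfbp2, an insulin-like growth factor binding protein gene, was at 209 (185 to 235), 60.3 (56.7 to 64.0) and 223 CPM (214 to 232), so that uninjured and 21 dpi overlapped and 7 dpi was low. Fosl1, an AP-1 subunit gene, was at 137, 63.9 and 139 CPM and Pawr at 181, 77.8 and 164 CPM, both also lowest at 7 dpi. At a keratin limit of 2% Fosl1, Pawr and Ctsc were not past 2-fold. Csta1 was at 18.4, 66.7 and 175 CPM, Ass1, an enzyme of arginine synthesis, at 59.1, 48.8 and 118 CPM, and Ctsc, the protease cathepsin C, at 48.3, 63.7 and 137 CPM. Hes1, a Notch target gene of the interfollicular list, was at 210 (186 to 237), 37.4 (34.6 to 40.3) and 92.1 CPM (86.3 to 98.1), while Pdgfra barcodes gave 243, 39.7 and 114 CPM.

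Among genes that qualified in the same way for 7 dpi against uninjured, Defb6, Cst6 and Mt4 had the lowest ratios. In the other direction the wound genes above were past 2-fold, as were Gpr15lg (20.7, 132 and 231 CPM), Clca3a2 (23.02, 117 and 72.3 CPM) and Pou3f1, a transcription factor gene (26.9, 108 and 84.9 CPM). Defb6, a beta-defensin gene, was at 1143, 22.3 and 83.4 CPM, Cst6, a cysteine protease inhibitor gene, at 1714, 52.1 and 278 CPM, and Krt79, a keratin of the hair follicle opening and sebaceous duct, at 943, 120 and 183 CPM. A few members carried these 3 genes. Members with at least 10 UMIs of any of them per 10000 numbered 6 of 60 in uninjured (10%, exact binomial interval 3.76 to 20.5), 40 of 1675 at 7 dpi (2.39%, 1.71 to 3.24) and 33 of 579 at 21 dpi (5.70%, 3.96 to 7.91), and 5, 5 and 9 of them reached this level for all 3 genes. Without these members Defb6 was at 11.9, 6.55 and 6.76 CPM, Cst6 at 24.6, 35.2 and 12.5 CPM and Krt79 at 2.55, 17.4 and 14.1 CPM. These members were left out for their level of the same genes, so that no direction is read from what remained. The remaining Cst6 was of the order of the Pdgfra barcodes, which held 56.4, 30.6 and 10.3 CPM of it. A Cst6 UMI was found in 6.40% of thinned Pdgfra barcodes at 7 dpi, against 6.85% of all members, and a Krt79 UMI in 3.397% against 5.58%. In uninjured these 6 members also held 4954 CPM of Krt17 and 1296 of Krt5, against 629 and 5718 in the other 54.

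Mt4, Itga3, Adh7 and Ccl27a kept the direction of their difference from uninjured without these members. Ccl27a was then at 150, 25.7 and 49.1 CPM, and Itga3 at 201, 34.3 and 74.7 CPM. Mt4, a metallothionein gene of stratified epithelia, was at 872 (822 to 924), 43.4 (40.4 to 46.6) and 116 CPM (110 to 123) in all members and at 964, 43.8 and 119 CPM without them. At 7 dpi this level was near the 30.4 CPM of the Pdgfra barcodes. Adh7, a retinol-metabolising alcohol dehydrogenase gene, was at 127, 16.1 and 36.2 CPM in all members and at 133, 16.0 and 33.8 CPM without them, and Aldh3a1 at 112, 18.8 and 43.0 CPM without them. Of the hair follicle and appendage list, 2 of 20 measured were 2-fold higher and 8 lower at 7 dpi than in uninjured (median -0.62), and 4 of 20 higher and 5 lower at 21 dpi (median -0.34). In the injured library, 14 of the 20 were below the Pdgfra barcodes at 7 dpi and 11 of the 20 at 21 dpi. Tbx1 was at 46.8, 9.01 and 36.1 CPM, and Sox9, a hair follicle stem cell factor, at 229, 67.7 and 119 CPM, against 68.9, 80.9 and 85.2 in Pdgfra barcodes, with 180, 63.2 and 106 CPM without the members rich in Krt79, Cst6 or Defb6.

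**Figure D4:**
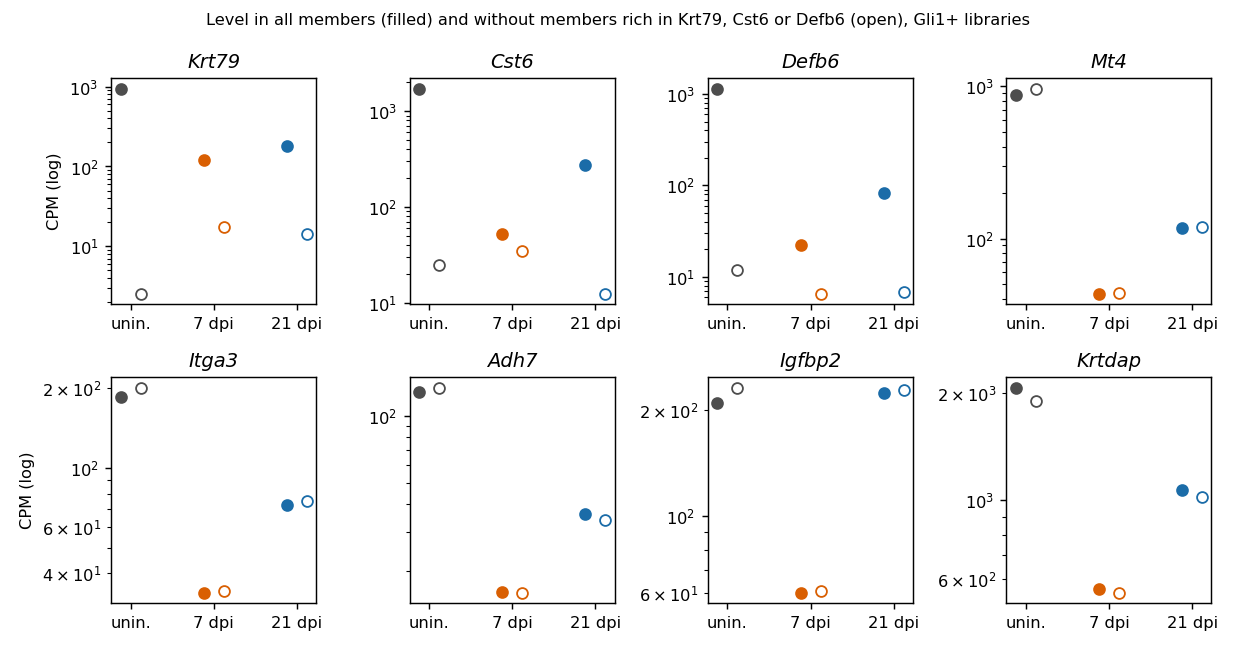
Level of 8 genes (y axis, CPM, log scale) in the 3 Gli1+ libraries, in all members (filled) and after leaving out members with at least 10 UMIs of Krt79, Cst6 or Defb6 per 10000 (open). For Krt79, Cst6 and Defb6 the open points of uninjured drop to 2.55, 24.6 and 11.9 CPM, whereas Mt4, Itga3, Adh7, Igfbp2 and Krtdap keep nearly the same place.

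Cycling members were found in all 3 libraries at shares whose intervals overlap. After thinning to 2000 UMIs, a member counted as cycling if it held at least 2 UMIs over 12 genes of the S to M phases, such as Mki67 and Top2a. By this count 9 of 60 members cycled in uninjured (15%, 7.10 to 26.6), 348 of 1650 at 7 dpi (21.1%, 19.1 to 23.1) and 129 of 576 at 21 dpi (22.4%, 19.1 to 26.0). Members shallower than 2000 UMIs, left out of this count, numbered 0, 25 and 3. Without thinning the shares were 40.0%, 41.7% and 46.8%, and the same thinned count gave 0.244%, 10.5% and 1.84% of Pdgfra barcodes. Of the 28 cell cycle genes, 0 of 23 measured were past 2-fold between 7 dpi and 21 dpi (median log2 ratio 0.05). Against uninjured, 7 of 22 were higher and 3 lower at 7 dpi (median -0.05), where 9.8% of all measured genes were higher and 7.96% lower. At 21 dpi 6 of 23 were higher and 1 lower (median -0.06), against 6.83% and 8.02% of all measured genes. The 3 lower genes at 7 dpi included Mki67 and Cenpf. Mki67 was at 225, 106 and 118 CPM, Cenpf at 180, 60.0 and 59.5 CPM, and Top2a at 120, 121 and 92.7 CPM, and the highest 10% of the members held 85.2% of the UMIs of the 12 genes in uninjured, 70.2% at 7 dpi and 59.8% at 21 dpi.

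Within a library the members differed in Krt15 and in wound keratins. Krt15 had a median of 7.38 UMIs per 10000 in uninjured (quartiles 3.27 and 22.9), 5.50 at 7 dpi (1.25 and 14.99) and 2.17 at 21 dpi (0 and 8.68). The 4 wound keratins Krt6a, Krt6b, Krt16 and Krt17 together had a median of 2.50, 9.56 and 11.9 UMIs per 10000, and the highest 10% of the members held 79.1%, 61.6% and 60.6% of the UMIs. At 21 dpi, 14.98% (10.8 to 20.1) of thinned members with a Krt15 UMI cycled, against 28.0% (23.2 to 33.1) of those without. At 7 dpi these shares were 20.4% (18.0 to 23.05) and 22.1% (19.0 to 25.5), and in uninjured the order was the opposite, at 17.8% (8.00 to 32.1) and 6.67% (0.169 to 31.9). Members with a wound keratin UMI cycled in 25.5% (21.4 to 29.9) at 21 dpi, against 14.1% (9.05 to 20.6) of those without, and in 21.2% and 20.8% at 7 dpi. In uninjured the shares were 11.1% (2.35 to 29.2) and 18.2% (6.98 to 35.5), again in the opposite order and with overlapping intervals. These splits are of cells within 1 library, and at 7 dpi many Pdgfra barcodes held a wound keratin UMI as well.

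Many migration genes were below their level in Pdgfra barcodes. Of 24 genes, 9 of 18 measured were 2-fold higher and 1 lower at 7 dpi than in uninjured (median 1.26), but 12 of the 18 were below the Pdgfra barcodes. Tnc and Fn1, matrix genes of wounds, were at 524 and 627 CPM in members at 7 dpi, against 1911 and 2268 in Pdgfra barcodes. Of the 21 measured glycolysis and hypoxia genes, 0 were past 2-fold between 7 dpi and 21 dpi. At 21 dpi 6 of 21 were higher than in uninjured and 0 lower (median 0.46). Gapdh was at 609, 1140 and 1327 CPM and the lactate exporter gene Slc16a3 at 7.67, 19.1 and 31.4 CPM. Of the 25 immediate early and heat shock genes, 1 was higher and 1 lower between 7 dpi and 21 dpi, with a median of 0.00, and Fos was at 3020, 2370 and 2698 CPM, below its 6641, 3086 and 4375 CPM in Pdgfra barcodes.

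**Figure D5:**
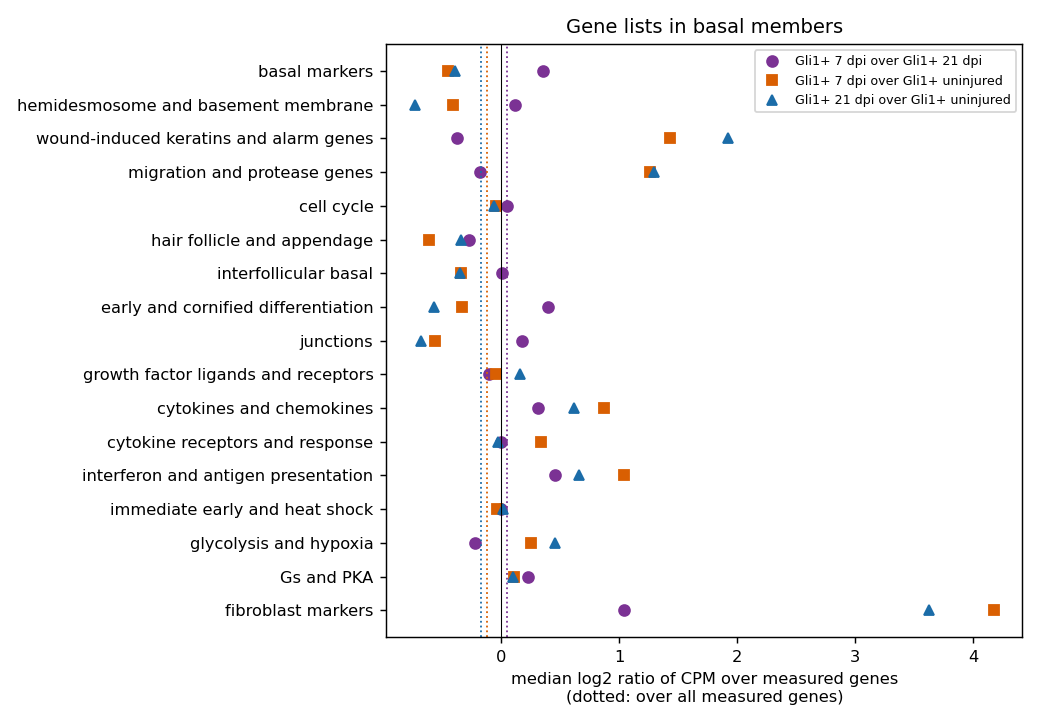
Median log2 ratio of CPM (x axis) over the measured genes of 17 lists in the 3 comparisons of the Gli1+ members; dotted lines give the median over all measured genes of each comparison. The wound keratin list lies at 1.43 and 1.92 against uninjured and at -0.37 between 7 dpi and 21 dpi, and the fibroblast markers lie farthest to the right in each comparison.

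The few basal barcodes of the Gli1- libraries gave levels side by side with those of the Gli1+ libraries. Of 6418 measured genes, 358 (5.58%) were 2-fold or more higher and 433 (6.75%) lower in the 28 members at 7 dpi than in the 42 at 21 dpi. Krt14 was at 15881 and 12688 CPM at 7 dpi and 21 dpi, Stfa3 at 1174 and 411, Igfbp2 at 27.8 (13.9 to 49.7) and 381 (335 to 431), Itga3 at 47.99 and 102, and Isg15 at 35.4 (19.3 to 59.3) and 1.52 (0.0385 to 8.48). Over the interferon list, 2 of 7 measured genes were 2-fold higher and 0 lower in the Gli1- sort. Its median log2 ratio was -0.03, as over all measured genes of that sort, against 0.46 in the Gli1+ sort. For Stfa3, Igfbp2, Itga3 and Isg15 the side on which 7 dpi lay was that of the Gli1+ libraries. For S100a8, Cst6, Csta1 and Fcgbp it was the opposite. In the Gli1- sort, 14 of 19 measured wound keratin and alarm genes were 2-fold higher at 7 dpi and 0 lower (median 1.95). In the Gli1+ sort 0 of 16 were higher and 2 lower (median -0.37). At 7 dpi, 3 of the 28 Gli1- members held 91.2% of the Krt16 UMIs and 76.2% of the Fabp5 UMIs. Of the 6004 genes measured in both sorts, 311 were past 2-fold in the Gli1+ sort and 676 in the Gli1- sort. Of the 111 genes past 2-fold in both, 21 lay in opposite directions. Keratin in Pdgfra barcodes was lower in these libraries, with Krt5 and Krt14 at 0.00462% and 0.00495% of their summed UMIs and a median barcode of 0%. The sexes were divided between the time points in the same way, with 19 members holding Y-linked UMIs alone at 7 dpi and 34 holding Xist alone at 21 dpi.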

How the data were processed

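Single-cell libraries (Chromium Single Cell 3' v3) of Gli1+ and Gli1- cells were analysed. The deposited values are UMI counts per gene and barcode, made by the authors with Cell Ranger. The submitters' processing notes give version 3.1.0, STAR and mm10, whereas the file headers give 9.0.0, and this could not be settled, so that no coordinates of measured genes are given. Raw UMI counts of members were summed per library and scaled to counts per 1000000 (CPM). With 1 library per condition no test was made. Intervals at 95% (exact Poisson or binomial) cover counting error only. A gene was measured with at least 20 UMIs in the pair and 20 CPM in the higher library. A library at 0 was set to 3 UMIs. Fold changes are log2 ratios of CPM, and the computation was tested on simulated data. Barcodes with the highest Scrublet scores (scanpy 1.11.5), at a set 0.8% per 1000 passing barcodes, were marked as doublets and kept. TMM factors came from edgeR 4.0.16. The sequences came from RefSeq. Members and gene lists were chosen with earlier results of these data known. Genes were named by a rule: the 5 basal markers; in each list up to 3 with the highest level and 4 with the largest ratio, in either direction, of 7 dpi over 21 dpi; for 7 dpi over 21 dpi and over uninjured the 10 largest ratios in each direction among genes at 100 CPM and 3 times the Pdgfra level, leaving out mitochondrial, ribosomal, hemoglobin, sex-linked and unnamed genes; and Gli1, Gnas, Krt1 and Krt10. Others (among them Krt6a, Krt16, Nrg1, Areg, Sox9 and Cntn5) were named after their values were seen.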

Additional observations from a re-analysis of the deposited data

Results flagged for a closer look

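In 5 named genes the Gli1+ and Gli1- members differed past 2-fold in opposite directions between 7 dpi and 21 dpi, and these differences between the sorts were not tested. S100a8 had a log2 ratio of -1.59 in the Gli1+ sort and 2.86 in the Gli1- sort. Cst6 had -2.41 and 2.13, Csta1 -1.39 and 1.73, Fcgbp 1.74 and -1.12, and Krt10 1.23 and -2.73. Krt10 was limited by the selection rule, and its 726 CPM in Gli1+ members at 7 dpi were close to the 697 CPM of the Pdgfra barcodes. For Cst6, 3 of 579 Gli1+ members held 80.4% of the UMIs at 21 dpi and 3 of 28 Gli1- members held 97.3% at 7 dpi. Few barcodes also carried the values of the Gli1- sort: 3 of 28 members held 95.6% of the S100a8 UMIs and 94.1% of the Csta1 UMIs at 7 dpi, and Krt10 had 5 UMIs there and 55 at 21 dpi. Fcgbp had 5 UMIs in this sort at 7 dpi and 18 at 21 dpi, 17 of them in 3 of 42 members. Over the 6004 genes measured in both sorts, 311 were past 2-fold in the Gli1+ sort and 676 in the Gli1- sort. Past 2-fold in both were 111, 90 of them in the same direction and 21 in opposite directions. Most of the 311 genes were thus not past 2-fold in the Gli1- sort.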

How the results depend on the processing

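The share of members was 0.5455%, 14.0% and 3.796% of passing barcodes in uninjured, 7 dpi and 21 dpi at a keratin limit of 1%, and 0.106%, 9.89% and 1.72% at 2%. Counting clean members alone it was 9.54% at 7 dpi and 4.12% at 21 dpi, and without doublets and with the other filters of the methods 14.2% and 4.70%. Clean members may hold collagen up to the 0.5% limit, so that fibroblast RNA was not fully removed from them. The cycling share without thinning was 40.0%, 41.7% and 46.8%. The counts of genes past 2-fold without a filter on low values were 2697 higher and 3239 lower for 7 dpi over 21 dpi, 1793 and 9073 for 7 dpi over uninjured, and 1303 and 7598 for 21 dpi over uninjured. For 7 dpi over uninjured, 448 were higher in clean members, 849 lower at a keratin limit of 2% (8 uninjured members) and 326 lower with TMM scaling. For 21 dpi over uninjured, 958 were lower at the 2% limit, 877 lower in members with Xist alone (28 uninjured members, an alternative that 7 dpi could not have), and 730 higher and 252 lower with TMM scaling. TMM moved the median log2 ratio of all genes by -0.11 for 7 dpi over 21 dpi, 0.21 for 7 dpi over uninjured and 0.33 for 21 dpi over uninjured.

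Of 204 values of named genes past 2-fold, 185 stayed past it with TMM scaling, 190 at the 1% limit, 178 as a mean over barcodes and 182 in clean members, and 149 of 202 did at the 2% limit. Named genes turned direction mostly at the 2% limit. For 7 dpi over 21 dpi these were Cst6 (1.59) and Defb6 (0.18), and Rgs5 at the 1% limit (0.24), at 2% (0.19) and without doublets and with the other filters of the methods (1.13). For 7 dpi over uninjured they were Cst6 (2.93), Fst (0.0294), Pawr (0.0445), Pdgfc (-0.86), Lcn2 (-0.35), Creb3l1 (-0.37) and Piezo2 (-0.17), and for 21 dpi over uninjured Krt79 (0.21), Calml3 (1.90), Epcam (0.0849), Cst6 (1.34) and Rgs5 (-1.18). Without the members rich in Krt79, Cst6 or Defb6, chosen after seeing the data, Cst6 turned to 1.49 for 7 dpi over 21 dpi, Krt79 to 2.77, Cst6 to 0.51 and Ly6g6c to 0.59 for 7 dpi over uninjured, and Krt79 to 2.47 for 21 dpi over uninjured. These members were left out for their level of 3 of these genes, and the remaining Cst6 was of the order of the level in Pdgfra barcodes, so that no direction is read from these values. Members with Y-linked UMIs alone, also added after seeing the data, turned none of 72 called values for 7 dpi over uninjured. The cause was not tested. No paired analysis was possible because each condition was 1 library. The 60 uninjured members and their 1303087 UMIs limit both comparisons with uninjured.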
